A study of Mus musculus with 3 samples.

Results

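Pax1, Pax9, Six4, Eya1, Hoxa3, Trp63 and Isl1 are 7 transcription factor genes used to recognise thymic epithelium. They were chosen by name out of 32285 genes in a single-cell RNA count matrix, and all 7 were present in it. Their unique molecular identifiers (UMIs, the counted molecules) were read across epithelial subtypes and set against mesenchymal and immune cells. The cells came from wild-type (WT), untreated thymus cultures on day 13, in 2 pools run together in 1 droplet lane. The ORFTOC pool (organoid reaggregate fetal thymic organ culture) held embryonic thymic epithelial cells (TECs) that had been grown as organoids and then reaggregated with fetal thymus cells depleted of EpCAM-positive cells and with mouse embryonic fibroblasts. The FTOC pool (fetal thymic organ culture) held intact fetal thymic lobes placed directly in the same culture medium. According to the study, the TECs grown as organoids came from older embryos than the lobes and the depleted fetal cells. A difference between pools therefore cannot be told apart from embryo age or from the time spent as organoids. Each pool mixed 2 cultures before an antibody with a barcode (hashtag) was added, so a pool is 1 sample, its cultures cannot be separated, and no test between pools was possible.

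The thymus grows from the third pharyngeal pouch, an outpocketing of the foregut endoderm that also gives rise to the parathyroid gland. Hoxa3, the paired-box factors Pax1 and Pax9, the homeodomain factor Six4 and Eya1, a coactivator that works with it, form a regulatory network of the pouch and of the early thymic rudiment. This network lies upstream of Foxn1, the forkhead factor that TECs need to mature. Trp63 encodes p63, the factor of stratified and basal epithelia that sustains epithelial progenitors, and Isl1 encodes a LIM homeodomain factor of the pharyngeal endoderm and of many other embryonic tissues. Cortical TECs (cTECs) and medullary TECs (mTECs) descend from a common progenitor, and the medulla also holds cells that resemble those of other organs, among them tuft cells, airway cells and ionocytes.

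In the RefSeq annotation of GRCm38.p6 the genes lie at chr2:147361930-147375049 (Pax1), chr12:56691693-56712824 (Pax9), chr12:73099609-73114031 (Six4), chr1:14168953-14311035 (Eya1), chr6:52169059-52213067 (Hoxa3), chr16:25683763-25892088 (Trp63) and chr13:116298270-116309688 (Isl1). Promoter sequence was found for 5 of the 7 genes. The promoters of Pax1 and Pax9 are shown because these paralogues had their highest levels in different TEC subtypes (cTEC-like and airway-like cells). Each run is the 250 bases before a RefSeq transcript start on the + strand, which lies inside the full span of the gene because other transcripts begin earlier, Pax1 at chr2:147364744-147364993 and Pax9 at chr12:56695221-56695470. Capitals mark matches on either strand to GACGC (a core bound by FOXN1), to TAAT (a homeodomain core) and to CCAAT (the CCAAT box).
Pax1: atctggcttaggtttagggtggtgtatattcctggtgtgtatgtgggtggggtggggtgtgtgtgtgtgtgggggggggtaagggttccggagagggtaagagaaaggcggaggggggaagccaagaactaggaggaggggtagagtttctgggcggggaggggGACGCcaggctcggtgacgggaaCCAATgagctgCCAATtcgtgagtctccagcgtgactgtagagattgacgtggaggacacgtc
Pax9: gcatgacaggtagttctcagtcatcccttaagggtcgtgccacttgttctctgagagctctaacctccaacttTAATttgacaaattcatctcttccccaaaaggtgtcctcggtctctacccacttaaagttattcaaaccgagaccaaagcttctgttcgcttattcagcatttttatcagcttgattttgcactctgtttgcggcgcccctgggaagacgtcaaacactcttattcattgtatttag
The Pax1 window held 1 GACGC, 2 CCAAT and 0 TAAT matches. The Pax9 window held 1 TAAT match and 0 of the others. Of 32851 mouse promoters of this length, 22.6% held GACGC, 54.9% held TAAT and 33.8% held CCAAT, so a match of these letters is common and is a description only.

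After filtering, 8392 cells with 72026359 UMIs were kept, 4248 from ORFTOC and 4144 from FTOC. Clustering placed 2191 cells in an epithelial, 267 in a mesenchymal and 5798 in an immune compartment, and a further cluster of 136 cells with both epithelial and immune RNA was set apart. Median depth was 12744 UMIs per epithelial cell (12140 in FTOC, 13339 in ORFTOC), 18735 per mesenchymal cell and 4247 per immune cell. Levels are sums of UMIs per 1000000 UMIs of the same cells (CPM), with exact Poisson 95% intervals that cover counting error only and not the spread between cultures. Compartments were named from marker lists that include Epcam, Ptprc (CD45) and Col1a1, so the levels of these genes describe the names without testing them. Epcam stood at 1162 CPM in epithelial, 17.3 in mesenchymal and 11.1 in immune cells. Ptprc stood at 498 CPM in immune and 12.3 in epithelial cells, and Col1a1 at 7811 CPM in mesenchymal and 2.29 in epithelial cells.

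The 7 genes were mostly epithelial, and Hoxa3 was the exception. Epithelial cells held 41.3% of all UMIs but 97.5% of the Pax1, 95.7% of the Pax9, 94.8% of the Six4, 96.1% of the Eya1, 98.01% of the Trp63 and 97.8% of the Isl1 UMIs. For Hoxa3 the epithelial share was 84.2%, and mesenchymal cells held 14.3%. In the plot of levels by compartment this appears as a gap of about 1 decade or more between epithelial and mesenchymal points for every gene but Six4 and Hoxa3.

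**Figure D1:**
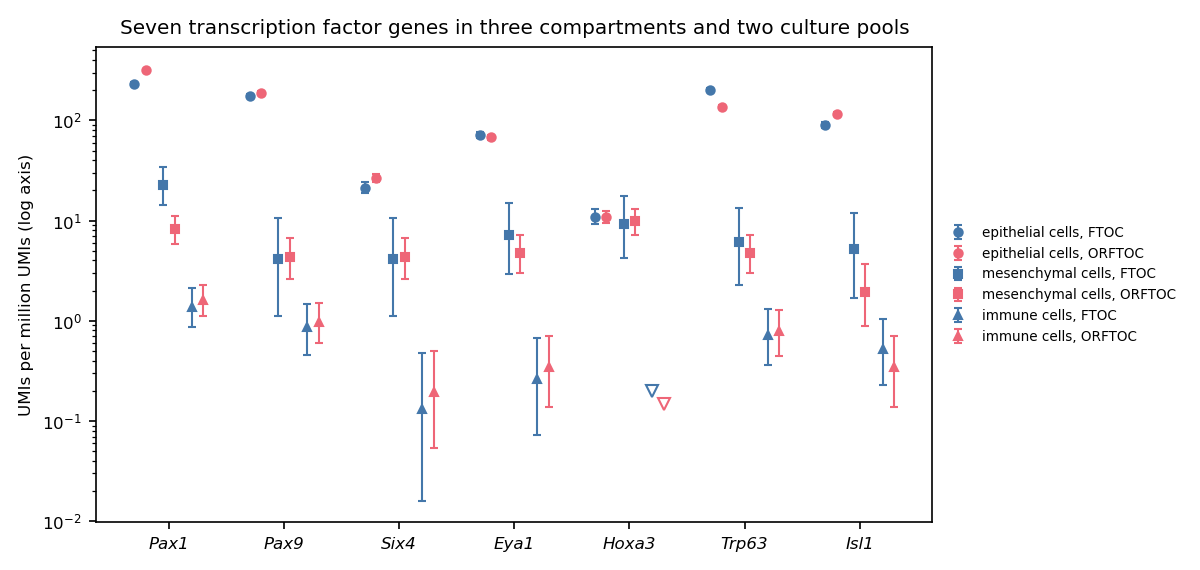
Level of each gene in epithelial, mesenchymal and immune cells of the FTOC and ORFTOC pools, in CPM on a log axis, with 95% Poisson intervals. Open triangles mark the limit for a sum of 0 UMIs, which applies to Hoxa3 in immune cells of both pools; Hoxa3 is the gene whose epithelial (10.9 CPM) and mesenchymal (9.78 CPM) levels overlap.

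Pax1 was read at 319.7 CPM in ORFTOC epithelium and 233 CPM in FTOC epithelium, against 8.17 and 22.7 CPM in the mesenchyme of the same pools. Pax9 stood at 188 and 176 CPM in epithelium and at 4.30 and 4.12 CPM in mesenchyme. Both paired-box genes were thus far above mesenchyme in either pool, by 26.5-fold (interval 20.6 to 34.8) for Pax1 and 42.9-fold (28.8 to 67.0) for Pax9 over both pools together. Trp63 was 32.8-fold higher in epithelium (22.7 to 49.5), Isl1 42.3-fold (25.2 to 77.5) and Eya1 13.4-fold (9.33 to 20.1). Six4 had a smaller difference, 24.5 CPM against 4.27 CPM, or 5.73-fold (3.82 to 9.002). A gene was called when its ratio was at least 2 or at most 1 in 2 with an interval that left out 1, among genes with at least 50 UMIs in both groups together. By this rule 6 of the 7 were called higher in epithelial than in mesenchymal cells, against 23.4% of the 13742 genes measured. The same 6 of 7 were called within FTOC (background 17.1%) and within ORFTOC (22.5%).

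Hoxa3 was read at 10.89 CPM in ORFTOC epithelium, 10.96 in FTOC epithelium, 9.89 in ORFTOC mesenchyme and 9.27 in FTOC mesenchyme. Its epithelial over mesenchymal ratio was 1.12 (0.837 to 1.51), an interval that held 1. The size of this ratio depended on the cells admitted: its log2 value was 0.16 here, 0.71 when doublets within a pool were kept and 0.78 when at least 1000 genes per cell were required, never past 2-fold.

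Immune cells held next to none of these RNAs. Their levels ran from 0.168 CPM for Six4 (6 UMIs in 5798 cells) to 1.52 CPM for Pax1 (54 UMIs). Hoxa3 had 0 UMIs among 35619341 immune UMIs, which allows a level of up to 0.0842 CPM, so that against this limit it was at least 129.6-fold higher in epithelium, or 105-fold at the lower end of the counting interval. Of the other 6, epithelial levels were 145-fold (Six4) to 250.4-fold (Isl1) above immune ones, and 7 of 7 were called higher against a background of 31.6%. Free RNA, taken from barcodes with 10 to 100 UMIs, contained all 7 genes, from 3.09 CPM for Hoxa3 to 72.0 CPM for Pax1, and its part in the low immune and mesenchymal levels was not tested. With the cluster that was set apart counted as immune, the log2 ratios ran from 4.93 (Pax9) to 6.40 (Trp63), against 7.02 to 7.97 without it, and that cluster held Epcam at 836 CPM.

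Because deeper cells show more genes, shares of cells were also given for cells thinned to 1000 UMIs. Without thinning, a Pax1 UMI was seen in 82.8% of epithelial cells and 0.828% of immune cells, and after thinning the expected shares were 22.5% and 0.256%. For Trp63 the thinned shares were 14.2% and 0.119%. The order of the compartments was the same with and without thinning for both genes.

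Hoxa3 was also present in mesenchymal cells that showed no epithelial marker RNA. A UMI of Hoxa3 was found in 51 of 267 mesenchymal cells (19.1%) and in 12.6% of epithelial cells, and after thinning to 5000 UMIs the shares were 5.85% and 5.41%. Among the 221 mesenchymal cells without any UMI of 6 epithelial markers (Epcam, Cdh1, Krt8, Krt18, Cldn4 and Cldn7), Hoxa3 was present as 42 UMIs in 41 cells, 9.13 CPM (6.58 to 12.3). In the same 221 cells Isl1 stood at 0.435 CPM against 2.49 CPM in all mesenchymal cells, Trp63 at 1.52 against 4.98 CPM and Pax9 at 1.96 against 4.27 CPM. Pax1 had 30 of its 60 mesenchymal UMIs there, in 9 cells, Six4 14 of 24 and Eya1 17 of 29.

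A list of 39 Hox genes, Hoxa3 among them, was compared in the same way, since Hox genes mark position along the body axis in both germ layers. Of 39 Hox genes, 7 had enough UMIs, 2 were called higher in epithelium and 4 lower (background 23.4% and 12.2%), and their median log2 ratio was -1.19 against 0.28 over all genes. Hoxa2, a gene of the pharyngeal arches (10.1 against 4.98 CPM), and Hoxa4 (3.797 against 1.60 CPM) were the higher ones. Hoxb2 (12.3 against 29.7 CPM), Hoxb3 (4.54 against 10.3), Hoxb4 (1.68 against 16.9) and Hoxd8 (0 against 102 UMIs) were the lower ones. Within ORFTOC, with 4651228 mesenchymal UMIs, 2 of 7 were called higher and 4 lower (background 22.5% and 12.5%). Within FTOC, with 971053 UMIs in 55 mesenchymal cells, 5 Hox genes passed and 0 were called (17.1% and 11.3%). In the mesenchyme itself 0 of 5 Hox genes were called between pools (4.61%). ORFTOC gave 212 of the 267 mesenchymal cells, and the mouse embryonic fibroblasts added to it were not told apart from thymic mesenchyme. The part of depth and of these fibroblasts in the missing FTOC calls was not tested. In the 6 Hox genes measured against immune cells all 6 were called higher in epithelium (background 31.6%).

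Within the mesenchyme only Pax1 and Hoxa3 had 50 UMIs. Hoxa3 had a ratio of ORFTOC over FTOC of 1.07 (0.516 to 2.48). Pax1 was lower in ORFTOC mesenchyme, 8.17 against 22.7 CPM, a ratio of 0.361 (0.208 to 0.640), and was called, against 2.5% of 8919 genes called lower. The 60 Pax1 UMIs came from 18 of 267 cells, 22 UMIs in 4 of 55 FTOC cells and 38 in 14 of 212 ORFTOC cells. The share of cells with a Pax1 UMI was thus close in the pools (7.27% and 6.60%). The interval of the ratio covers counting error only and not the spread between cells. Epcam, the epithelial surface marker, was also lower in ORFTOC mesenchyme (11.6 against 44.3 CPM). The part of epithelial RNA and of the fibroblasts added to ORFTOC in the Pax1 difference was not tested. In mesenchymal cells without epithelial marker UMIs, Pax1 was still read at 15.7 CPM in FTOC (12 UMIs in 2 cells) and 4.70 CPM in ORFTOC (18 UMIs in 7 cells).

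Epithelial cells fell into 9 clusters. Named from marker genes that include none of the 7, they were 712 early mTEC-like, 455 airway-like, 291 cTEC-like, 100 Aire mTEC-like, 44 ionocyte-like and 25 tuft-like cells. The markers among the 10 leading genes were Krt14, Krt15 and Ccl21a (early mTEC-like), Bpifa1, Muc5b and Reg3g (airway-like) and Aire (Aire mTEC-like). They were Tbata, Psmb11, Ccl25 and Prss16 in cTEC-like, Foxi1 and Ascl3 in ionocyte-like, and Gnat3, Gng13 and Avil in tuft-like cells. Leading genes that were not markers included Rgs5, Ccl11 and Acta2 in early mTEC-like cells and Hp and Sftpd in airway-like cells. Another 3 clusters met no rule: 281 cells led by Igfbp2 and Ndufa4l2, 226 led by Lypd1 and Prss23, and 57 led by the thymocyte genes Ms4a4b and Cd3d. Only Pax1 and Trp63 were among the genes that formed the clusters, but a cluster set against the other epithelial cells is a description and not a test for any gene.

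Pax1 was highest in cTEC-like cells. It stood there at 635 CPM in ORFTOC and 683 CPM in FTOC, against 216 CPM in the other epithelial cells of both pools, a ratio of 2.96 (2.83 to 3.10), and 286 of 291 cTEC-like cells carried a Pax1 UMI. The Lypd1/Prss23 cluster came next at 326 CPM. Airway-like cells, the Ms4a4b/Cd3d cluster and the Igfbp2/Ndufa4l2 cluster (231 to 246 CPM) had overlapping intervals, and Aire mTEC-like cells were last at 56.0 CPM. Pax1 was the one gene of the 7 called higher in cTEC-like cells, where 5.18% of all genes were. Foxn1, measured beside it, was also highest in cTEC-like cells (179 CPM), yet the lowest places differed: Foxn1 stood at 103 CPM in Aire mTEC-like cells and at 1.45 CPM in ionocyte-like cells, where Pax1 stood at 106 CPM.

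Pax9, the paralogue of Pax1, had its highest level in airway-like cells. There it was read at 282 CPM in ORFTOC and 266 CPM in FTOC, 1.72-fold above the other epithelial cells, which is short of the 2-fold rule. The next 6 clusters, from 180 CPM (Lypd1/Prss23) to 163 CPM (ionocyte-like), could not be put in order because their intervals overlapped. Aire mTEC-like cells (89.6 CPM) and tuft-like cells (57.7 CPM) were lower. Six4 was likewise highest in airway-like cells (35.7 CPM, 1.62-fold, not called), and its other 8 clusters, from 25.6 to 14.5 CPM, each overlapped the next in order.

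**Figure D2:**
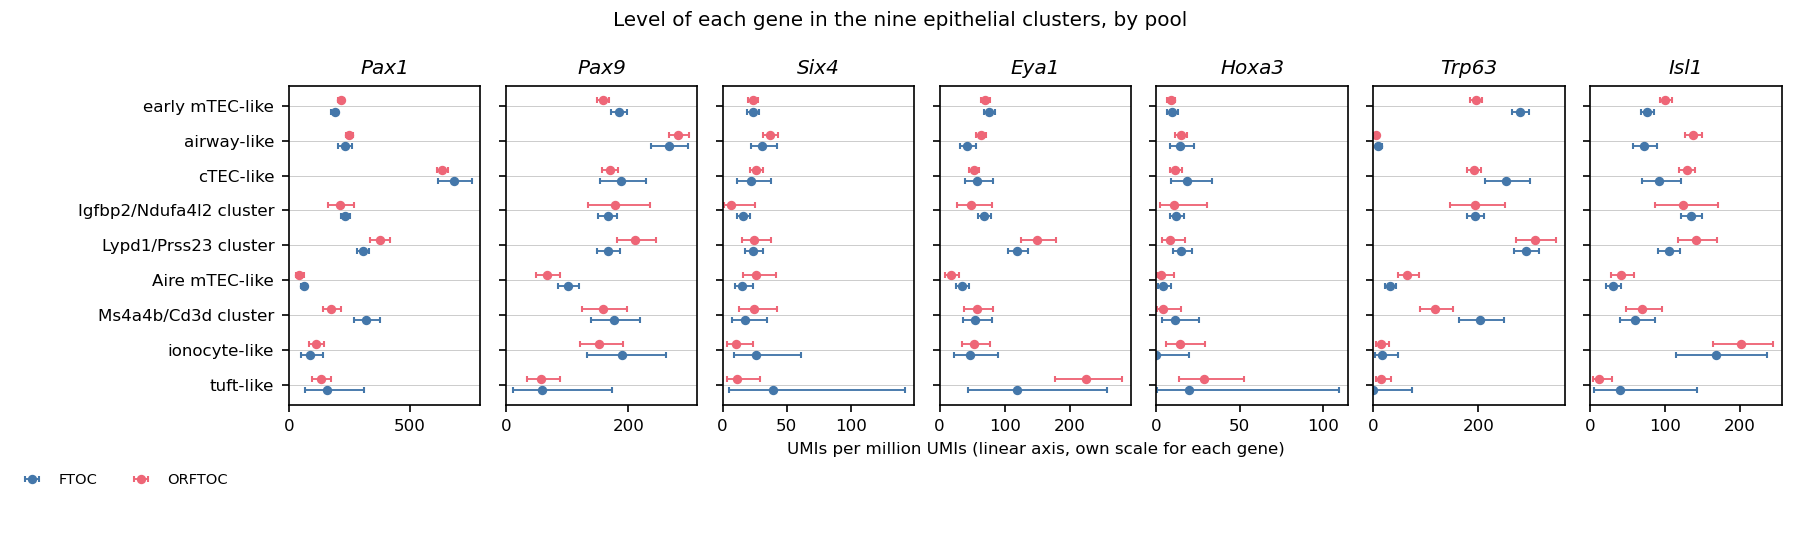
Level of each gene in the 9 epithelial clusters of FTOC and ORFTOC, in CPM on a linear axis with its own scale for each gene, with 95% Poisson intervals. Pax1 stands out in cTEC-like cells (641 CPM over both pools), Eya1 in tuft-like cells (211 CPM), Isl1 in ionocyte-like cells (192 CPM), and Trp63 is near 0 in airway-like cells (6.104 CPM).

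Trp63 had the widest range among the clusters as a fold between the highest and lowest level, though not in CPM, where Pax1 ranged wider. It was highest in the Lypd1/Prss23 cluster (296 CPM), in early mTEC-like (229 CPM) and in cTEC-like cells (198 CPM). In airway-like cells it was read at 5.23 CPM in ORFTOC and 9.18 CPM in FTOC, 33 UMIs in all, and 14 of 455 cells carried one. This was a ratio of 0.0308 to the other epithelial cells (0.0212 to 0.0433), in a cluster where 17.5% of all genes were called lower. Tuft-like (5 UMIs) and ionocyte-like cells (10 UMIs) were also low, with ratios of 0.0758 and 0.0871. Under other settings the log2 ratio of Trp63 ran from -5.83 to -4.15 in airway-like cells (-5.02 here) and from 0.10 to 0.93 in early mTEC-like cells (0.79 here). The 33 UMIs should be read beside a Trp63 level of 53.5 CPM in free RNA, whose part was not tested.

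Other genes of basal epithelium were low in the same clusters. Of 18 genes linked to Trp63, 10 were called lower in airway-like, 11 in tuft-like and 10 in ionocyte-like cells, and 0, 0 and 2 higher (all genes called lower 17.5%, 10.9% and 9.65%, and higher 10.1%, 11.4% and 8.14%). Krt5, Krt14, Krt15, Itgb4 and Col17a1 of this list were also markers used to name the early mTEC-like cluster. The counts are therefore not independent of the naming and are a description only. Krt14, a keratin of basal cells, stood at 2.96 CPM in airway-like cells against 376 CPM elsewhere. Krt5 was less separate, 777 against 1667 CPM. Itga6, the integrin that anchors basal cells, stood at 60.9 against 186 CPM, Jag2, a Notch ligand, at 4.63 against 74.7 CPM and Fgfr2, the receptor of FGF7, at 13.0 against 126 CPM. In the Lypd1/Prss23 cluster, where Trp63 was highest, 9 of the same 18 genes were called lower (background 16.3%) and 1, Jag2, higher, so a high Trp63 level did not come with high levels of its list there.

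Eya1 and Hoxa3 were highest in tuft-like cells, a chemosensory cell type. Eya1 was read at 224 CPM in the 21 ORFTOC and 118 CPM in the 4 FTOC tuft-like cells, 84 UMIs in all, and was seen in 22 of 25 cells. It was called higher, with a ratio of 3.13, as was Hoxa3 with 11 UMIs and a ratio of 2.58 (1.28 to 4.68), where 11.4% of all genes were. In the same cells Pax1 (0.475), Pax9 (0.313), Trp63 and Isl1 (0.141, 6 UMIs) were called lower, where 10.9% of all genes were. The 7 genes were thus split in these 25 cells, and the place of Hoxa3 above airway-like cells (14.4 CPM) was within counting error. Eya1 was also called higher in the Lypd1/Prss23 cluster, at 128 CPM (ratio 2.04, 1.81 to 2.28, background 3.95%).

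Isl1 was highest in ionocyte-like cells, which are marked by Foxi1 and Ascl3. Its levels there were 201 CPM in ORFTOC and 168 CPM in FTOC, and 39 of 44 cells carried a UMI. The ratio of 1.86 was not called. Pax1 (0.369) and Trp63 were called lower in these cells, where 9.65% of genes were. Isl1 was low in Aire mTEC-like (33.6 CPM) and tuft-like cells (15.1 CPM).

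Aire mTEC-like cells, the cells that express peripheral tissue antigens, had low levels of nearly every member. In them 6 of 7 were called lower than in the other epithelial cells, against 17.4% of all genes, and the median log2 ratio of the 7 was -1.72 against -0.19 over all genes. Pax1 had a ratio of 0.187, Trp63 0.246, Hoxa3 0.297 (7 UMIs), Isl1 0.303, Eya1 0.390 and Pax9 0.472. Six4 had a ratio of 0.764 (0.539 to 1.06). Foxn1, by contrast, stood at 103 CPM there and at 68.2 CPM in all epithelial cells. Depth was higher in these cells than in epithelium as a whole (18045 against 12744 median UMIs), and under other settings 4 to 6 of the 7 were called lower.

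Cells were then thinned to 5000 UMIs to count how many of the 7 genes were seen in the same cell. A median of 2 were seen in 2078 epithelial cells, none in 4.57% and at least 3 in 49.3%. The share with at least 3 was 64.4% in the Lypd1/Prss23 cluster, 63.1% in cTEC-like, 52.7% in early mTEC-like, 42.1% in airway-like and 6.19% in Aire mTEC-like cells, where 35.1% of cells showed none. In mesenchymal cells 86.8% showed none. The pools were close, with at least 3 genes in 50.2% of ORFTOC and 48.1% of FTOC epithelial cells.

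**Figure D3:**
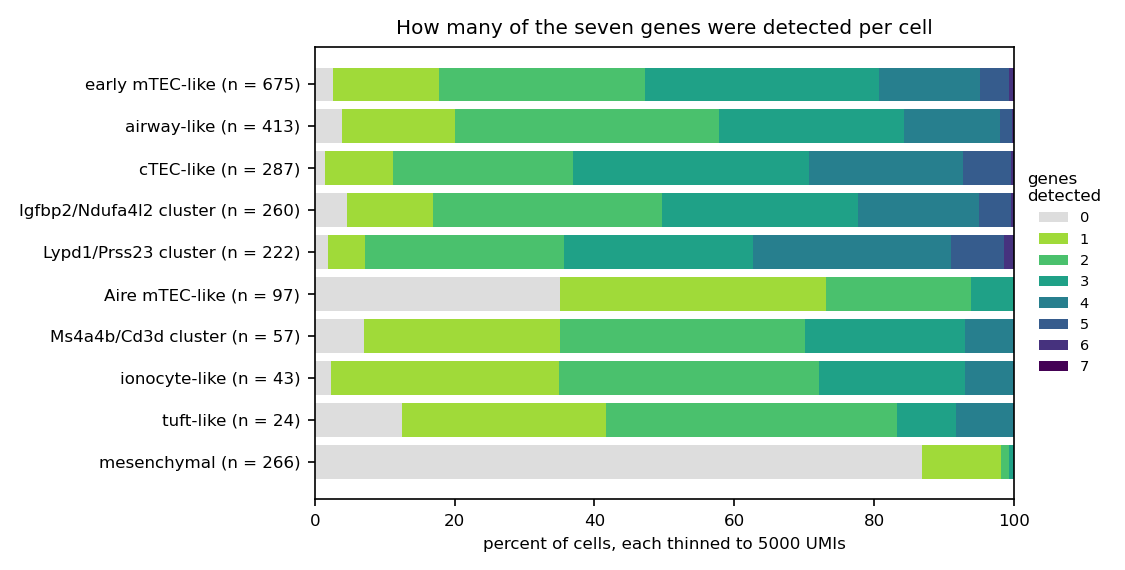
Percent of cells by the number of the 7 genes detected after thinning each cell to 5000 UMIs, stacked to 100% for each group of cells. In Aire mTEC-like cells 35.1% of cells showed none of the genes, against 4.57% of all epithelial cells and 86.8% of mesenchymal cells.

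Pairs of the genes occurred in the same cell about as often as their shares gave. For the 21 pairs, the number of cells with both, divided by the number expected from the shares within each cluster and pool, ran from 0.916 (Six4 and Hoxa3, 11.9 cells) to 1.14 (Hoxa3 and Isl1, 51.6 cells). Pax1 and Pax9 were expected together in 752 cells and were seen in 760.

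Between the pools none of the 7 differed 2-fold in epithelium. Pax1 was read at 319.7 CPM in ORFTOC and 233 CPM in FTOC, a ratio of 1.37 (1.31 to 1.44). Isl1 stood at 117 and 89.8 CPM (1.30, 1.21 to 1.40), and Six4 at 26.7 and 21.4 CPM (1.25, 1.07 to 1.46). These 3 were somewhat higher in ORFTOC. Trp63 was lower, 137 against 200 CPM (0.685, 0.647 to 0.725). Pax9 (1.07), Eya1 (0.947) and Hoxa3 (0.994) had ratios close to 1, and the intervals of the last 2 held 1. In all, 0 of 7 were called, against 8.78% of 13179 genes, and the median log2 ratio of the 7 was 0.10 against 0.00 over all genes.

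The pools did not hold the same mix of epithelial clusters. The cTEC-like cluster made up 21.0% of ORFTOC and 3.43% of FTOC epithelial cells, and airway-like cells 28.1% and 11.3%. The Igfbp2/Ndufa4l2 cluster made up 2.11% and 26.5%. When each pool was given the same cluster shares, the log2 ratio of Pax1 went from 0.46 to 0.01, that of Six4 from 0.32 to 0.08 and that of Trp63 from -0.55 to -0.31. For Isl1 it was 0.38 as found and 0.43 with equal shares, so Isl1 was the one gene of the 7 whose higher level in ORFTOC did not shrink. Pax1 and Trp63, unlike Isl1, were among the genes that formed the clusters. Equal cluster shares thus in part hold their own levels equal, and their smaller ratios are a description only. The cTEC-like level in FTOC rests on 33 cells.

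**Figure D4:**
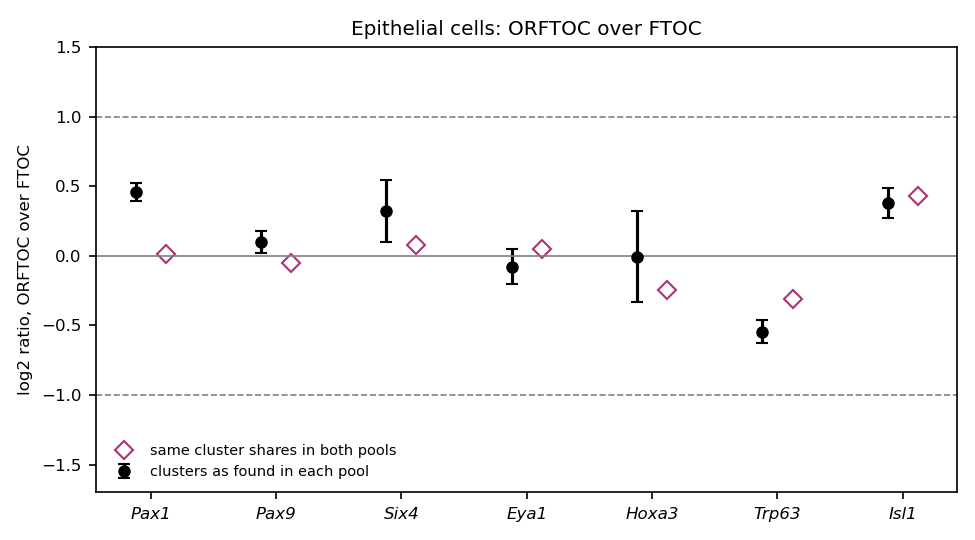
Log2 ratio of ORFTOC over FTOC in epithelial cells for each gene, as found (filled circles, with 95% counting intervals) and with the same cluster shares in both pools (open diamonds, no interval computed). Dashed lines mark 2-fold, which no gene reaches; Pax1 moves from 0.46 to 0.01 and Isl1 stays at 0.38 and 0.43.

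Within single clusters Isl1 was higher in ORFTOC in 7 of the 8 clusters where it had 50 UMIs, and in 4 of them the interval lay above 1. The ratio was largest in airway-like cells (138 against 71.8 CPM, 1.92, 1.53 to 2.44) and was 1.32 in early mTEC-like and 1.40 in cTEC-like cells. The exception was the Igfbp2/Ndufa4l2 cluster (0.918, 0.633 to 1.29). For Six4 the ratio ran from 1.01 to 1.20 in the 4 clusters with 50 UMIs, each with an interval that held 1, and from 0.292 to 1.70 in the other 5, which had fewer UMIs.

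Trp63 went in different directions in different clusters. It was lower in ORFTOC in early mTEC-like cells (195 against 279.5 CPM, 0.696, 0.640 to 0.758), in cTEC-like cells (191 against 252 CPM, 0.759) and in the Ms4a4b/Cd3d cluster (0.582). It was higher in Aire mTEC-like cells, 64.0 CPM (44 UMIs, carried by 13 of 37 cells) against 31.5 CPM (43 UMIs, carried by 22 of 63 cells), a ratio of 2.04 (1.31 to 3.17). The share of these cells with a Trp63 UMI was 35.1% in ORFTOC and 34.9% in FTOC, at median depths of 16254 and 20058 UMIs. After thinning to 5000 UMIs the expected shares were 20.4% (8.84 to 37.1) and 12.8% (5.62 to 23.8), with overlapping intervals. Trp63 was the only one of the 7 genes called between pools in any epithelial cluster, and in that cluster 2.92% of 5584 genes were called higher. In either direction 6.79% of genes were called between pools in Aire mTEC-like, 3.43% in early mTEC-like, 4.75% in airway-like, 6.45% in cTEC-like, 6.5% in ionocyte-like and 8.4% in tuft-like cells, and 5.06%, 3.92% and 4.11% in the clusters led by Igfbp2, Lypd1 and Ms4a4b. Whether the ratios differ between clusters beyond the spread of cultures was not tested.

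The relatives and partners of the 7 genes showed where else in the network the pools or the tissues differed. Of 23 such genes, 17 had enough UMIs for epithelium against mesenchyme, 8 were called higher and 0 lower (all genes 23.4% and 12.2%). Six2 (121 against 3.38), Eya2 (220 against 4.62) and Eya4 (59.3 against 4.09) were among them. Pbx2 and Meis1, cofactors of Hox proteins, were not called. Of the 20 genes of pouch and organ fate, 12 had enough UMIs and 6 were called higher in epithelium, among them Foxn1 with 2030 against 3 UMIs, and 2, Bmp2 and Wnt5b, lower. Of the 18 basal genes 16 were called higher. These lists are read against the same 23.4% and 12.2%.

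Between the pools, Eya2 was the one relative of Eya1 or Six4 called higher in ORFTOC epithelium, 282 against 135 CPM (2.09, 1.98 to 2.21), while Six2 (0.900) was close to 1. Dach1, a partner of the Eya proteins (3.07 against 6.64 CPM), and Trp73, the relative of Trp63 (2.43 against 5.04 CPM), were called lower. All genes called higher were 4.37% and lower 4.41%. In the list of pouch and organ fate genes, 3 of 12 measured were called higher, Foxa1 (36.9 against 13.7 CPM), Gata3 (9.79 against 3.92 CPM) and Wnt5b, and of the basal genes 1 of 18, Krt14 (427 against 144 CPM). Foxa1, Gata3 and Wnt5b were among the 5 genes of that list called higher in airway-like cells, a larger share of ORFTOC epithelium. Within airway-like cells 0 of 8 genes of that list were called between pools (background 4.75%). Within Aire mTEC-like cells 2 of 6 were called higher in ORFTOC (6.79%), and within early mTEC-like cells 1 of 6 (3.43%). Within cTEC-like cells it was 1 of 5 (6.45%) and within the Igfbp2/Ndufa4l2 cluster 1 of 4 (5.06%). In the Lypd1/Prss23 (4 measured), Ms4a4b/Cd3d (3) and ionocyte-like clusters (3), 0 were called. These backgrounds count both directions, and the part of cluster shares was not tested. Over all epithelial cells Foxn1 had a ratio of 1.11 (1.02 to 1.22). Of 39 Hox genes 6 were measured and Hoxb4 was called higher, at 2.20 against 0.960 CPM.

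These genes were also unequal among the clusters. Eya2, like Pax1, was called higher in cTEC-like cells (383 against 189.7 CPM), as were Isl2, the paralogue of Isl1 (37.3 against 9.97 CPM), and Foxn1. Airway-like cells, which had little Trp63, were called higher (background 10.1%) for 5 of the 12 pouch and organ fate genes, Tbx1, Foxa1, Foxa2, Gata3 and Wnt5b, and for 3 of 17 relatives and partners, among them Six3 and Dach1. They were called lower (background 17.5%) for 2 of the 12, Foxn1 and Wnt4, and for 2 of the 17, Trp73 and Isl2. Six3 in airway-like cells stood at 12.4 against 0.0821 CPM. Tbx1, a T-box factor of the pharyngeal endoderm, stood at 13.1 against 0.698 CPM and Foxa1, a forkhead factor of foregut-derived epithelia, at 81.2 against 15.2 CPM. Hoxb2 (29.0 against 8.62 CPM) and Hoxb4 (5.92 against 0.739 CPM) were called higher in the same cells, whereas Hoxa3 had 14.4 CPM there and was not called.

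A group of 13 cells with at least 10 UMIs of Pth, the parathyroid hormone gene, gave the levels of the 7 genes in the other derivative of the pouch. They lay in the cluster that was set apart, 11 came from FTOC and 2 from ORFTOC, and their median depth was 21815 UMIs. Pax9 was present as 105 UMIs in 12 of the 13 cells, 368 CPM (301 to 446), 2.01-fold the level of epithelial cells (1.64 to 2.44). Pax1 was low, 10 UMIs or 35.1 CPM, a ratio of 0.124 (0.0594 to 0.228). Six4 and Eya1 had 3 UMIs each. Hoxa3, Trp63, Isl1 and Foxn1 had 0 UMIs, which allows up to 10.5 CPM each, a limit close to the epithelial level of Hoxa3 (10.9 CPM) but far under those of Trp63 (163 CPM) and Isl1 (105 CPM).

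**Figure D5:**
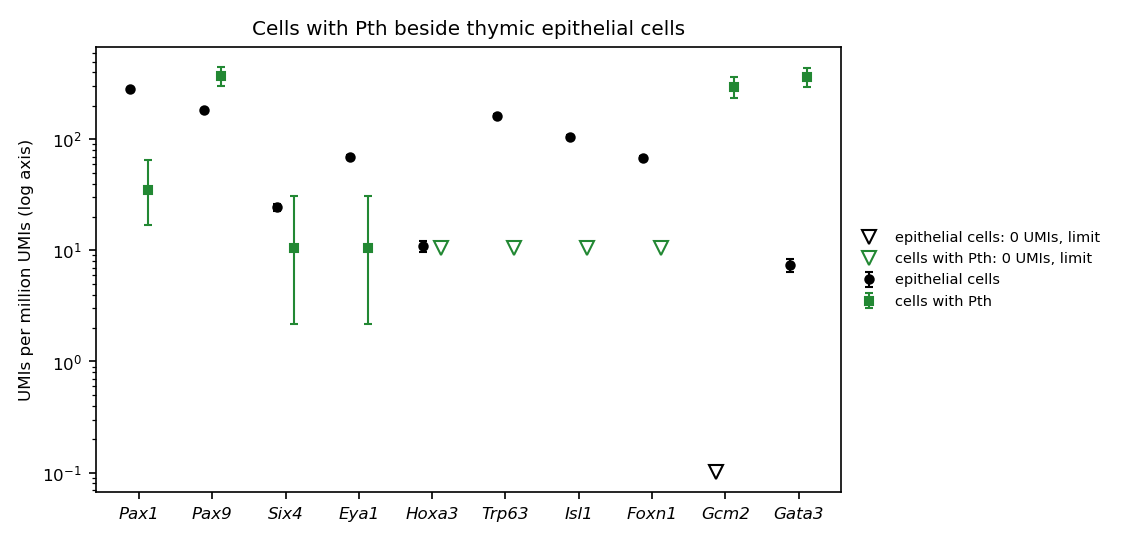
Levels of the 7 genes and of Foxn1, Gcm2 and Gata3 in 13 cells with at least 10 Pth UMIs, beside epithelial cells, in CPM on a log axis, with 95% Poisson intervals and limits where the sum was 0. Pax9 is the one of the 7 genes that is higher in the cells with Pth (368 against 183 CPM); Gcm2 and Gata3 are high in them and low in epithelial cells.

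Gcm2, the regulator of parathyroid fate, had 84 UMIs in these cells and 0 in 2191 epithelial cells. Gata3, which acts with Gcm2 in the parathyroid, stood at 361 CPM against 7.32 CPM in epithelium, and Casr, the calcium-sensing receptor, had 18 UMIs in 10 of the 13 cells. They thus held parathyroid markers, and Pax1 and Pax9 were on opposite sides of their epithelial levels in them. The other 123 cells of that cluster were shallow (median 2792 UMIs), with Epcam in 75 and Ptprc in 65 of them.

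Finally, the genes with the profile most like each member were sought among 12471 genes across 29 clusters of all compartments, by Pearson r of log2 CPM with a pseudocount of 10 CPM. The clusters come from 1 lane, so r is a description. Eya4 was among the nearest genes for Pax9 (r = 0.981), and Six2 was second for both Six4 (0.964) and Eya1 (0.971). For Trp63 the nearest was Shisa2 (0.984), for Isl1 Efna1 (0.977), an ephrin, and for Hoxa3 Arhgef17 (0.968). For Pax1 they were Plxnb1 (0.982), a semaphorin receptor, AI646519 (0.979) and Ripk4 (0.979). AI646519, a long noncoding RNA, overlaps the RefSeq model of Pax1 at chr2:147361541-147362793, and stood at 104 CPM in cTEC-like, 55.3 in early mTEC-like, 53.6 in airway-like and 9.25 CPM in Aire mTEC-like cells. Since the 2 models share bases and the sources used here do not state whether counting used strand, reads of this RNA and of Pax1 may not be fully separate. The Hoxa3 model also overlaps other genes of its cluster, among them Hoxa4, Hoxa5 and Hoxa6 and the RNAs Hoxaas2 and Hoxaas3, to which the same limit applies. It also applies to Six4, whose model overlaps Mnat1 (48.9 CPM in epithelium against 24.5 CPM for Six4), to Pax9, which overlaps Slc25a21 (3.06 CPM), Gm15524 and Gm46352, and to Trp63, which overlaps Gm24928.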

How the data were processed

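Reads were aligned to the mouse genome (mm10) with Cell Ranger 6.1.2 by the authors, and the deposited matrix held unfiltered counts of UMIs for every barcode, with hashtag counts in the same matrix. The deposited T cell receptor contig lists were not used here. The header of the matrix and the submitters' processing notes did not name the same Cell Ranger release. Cells with at least 600 genes detected and 0.4 to 10% mitochondrial UMIs were kept, hashtags were assigned with HTODemux (quantile 0.99), and doublets within pools were removed by the share of known doublets among 50 neighbours, since the study's own package was not used here. Counts were normalised with SCTransform (sctransform 0.4.2, Seurat 5.3.0, R 4.3.3), with 18 dimensions and resolution 0.4 (immune 1). Sums and intervals were computed with scipy 1.17.1, pandas 2.3.3 and numpy 2.4.6 in Python 3.11.15.

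A cluster took the name with the highest mean log2 marker fold if at least 3 markers were detected in 5% of its cells and its leading 10 genes held more of its own markers than of any other class. This rule was set after leading genes had been seen. UMIs were summed per pool and group, and ratios carry exact conditional 95% intervals, with a floor of 3 counts for a sum of 0. Thinned shares of cells are expectations over all draws, and the genes seen per cell come from 1 seeded draw. The 7 genes and all lists were chosen with earlier results of these data known. Named genes were the 7, list genes called past 2-fold or at 10 CPM or more, and the 3 genes with the most similar profile, and some of these are not reported here. Genes with 0 or few UMIs were named beyond this rule for the cells with Pth, a group chosen after its values were seen. The calls were run on simulated Poisson counts with known ratios. These hold no spread between cells or cultures, so the run checks the computation and not the calls in these data. Promoters were matched by symbol in a RefSeq table of GRCm38.p6.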

Additional observations from a re-analysis of the deposited data

Results flagged for a closer look

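Signal of the 7 genes was present in cells that no comparison used. In the 672 cells that passed the filters but carried no hashtag call, there were 441 UMIs of Pax1, 348 of Pax9, 37 of Six4, 182 of Eya1, 47 of Hoxa3, 344 of Trp63 and 232 of Isl1, each above the limit that a count of 0 allows (3 UMIs). These cells had a median of 2394 UMIs, and Epcam was detected in 345 and Ptprc in 179 of them.

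The ratio of ORFTOC over FTOC for Trp63 had opposite signs in different epithelial clusters, each with a counting interval that left out 1. Its log2 value was 1.02 in Aire mTEC-like cells, -0.52 in early mTEC-like cells, -0.40 in cTEC-like cells and -0.78 in the Ms4a4b/Cd3d cluster. The difference between clusters was not tested, because each pool was 1 sample, and only genes with at least 1 call in a cluster were considered, a condition set after the values had been seen.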

How the results depend on the processing

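No called value among those recomputed changed sign under an alternative run. For the 7 genes these were the ratios between pools in all epithelial cells, over mesenchymal cells and over immune cells. Ratios of the named classes to the other epithelial cells were recomputed as well. Calls between pools within a cluster or in mesenchyme, calls in unnamed clusters and calls of single list genes were not recomputed. Of 84 recomputed ratios between pools 79 stayed within the counting interval, though those of Pax9, Eya1 and Hoxa3 crossed 0 on the log2 scale, and 0, 6 and 7 of the 7 genes stayed called between pools, over mesenchymal and over immune cells in the 9 alternatives that gave these counts. The values that follow moved beyond the counting interval, and the cause was not tested. With equal cluster shares, the log2 ratio of ORFTOC over FTOC was 0.014 for Pax1, -0.054 for Pax9, 0.077 for Six4 and -0.31 for Trp63. With hashtags by ratio it was 0.564 for Isl1, the epithelial share of UMIs was 97.3% for Pax9, 78.8% for Hoxa3 and 97.4% for Trp63, and the log2 ratio of Pax9 over mesenchymal cells was 4.79 and of Isl1 over immune cells 7.21. Under that rule, and with compartments by raw UMIs of Epcam, Ptprc and Pdgfra, 1 gene of the 7 was called higher in ionocyte-like cells, against 0 otherwise.

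With those raw UMIs, the log2 ratio over mesenchymal cells was 5.33 for Pax1, 6.28 for Pax9, 6.77 for Trp63 and 7.94 for Isl1, and epithelial shares were 98.9% (Pax1), 99.3% (Pax9), 96.6% (Six4), 98.5% (Eya1), 99.3% (Trp63) and 99.5% (Isl1). With doublets kept, the log2 ratio of Hoxa3 over mesenchymal cells was 0.71, and epithelial shares were 97.1% (Pax1), 97.5% (Trp63) and 97.2% (Isl1). With at least 1000 genes per cell the log2 ratio over mesenchymal cells was 3.41 for Six4, 0.78 for Hoxa3 and 5.79 for Trp63, and over immune cells 8.19 for Pax1. Log-normalised counts gave a Trp63 share of 98.4%.

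With the mean of the CPM of each cell, the log2 ratio over immune cells was 6.67 for Pax1, 6.90 for Trp63 and 6.87 for Isl1, and epithelial shares were 94.3% for Pax1 and for Pax9, 94.7% (Eya1), 87.8% (Hoxa3), 95.2% (Trp63) and 95.2% (Isl1). With free RNA subtracted at an assumed 5% of UMIs, the log2 ratio over mesenchymal cells was 5.31 for Pax1, 6.17 for Pax9 and 6.13 for Trp63, and shares were 98.4% (Pax1), 96.4% (Pax9), 98.9% (Trp63) and 98.5% (Isl1); no ratio over immune cells could be formed where the subtraction left nothing there. With the set-apart cluster counted as immune, an alternative added after seeing the data, the log2 ratio over immune cells was 6.08 for Pax1, 4.93 for Pax9, 5.81 for Six4, 5.53 for Eya1, 6.06 for Hoxa3, 6.40 for Trp63 and 6.11 for Isl1. At a minimum of 200 UMIs, 548 genes were called between pools in epithelium, against 1157 at 50.

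Among clusters, 28 of 455 ratios to the other epithelial cells and 24 of 455 levels moved. Early mTEC-like cells were found in 10 of the alternatives with these ratios, and each other named class in 11. The log2 ratio in early mTEC-like cells ran from 0.10 to 0.93 for Trp63 and from -0.34 to 0.21 for Isl1, a change of sign, and for Eya1 from -0.07 to 0.20. In airway-like cells that of Trp63 ran from -5.83 to -4.15, in Aire mTEC-like cells that of Trp63 from -2.10 to -1.28, of Isl1 from -1.84 to -1.10 and of Hoxa3 from -4.17 to -1.08, and in ionocyte-like cells that of Hoxa3 from -1.69 to -0.02. Of 28 shares of cells with a UMI, 27 moved, as thinning lowers them by construction.

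Limits. Each pool is 1 sample of 2 mixed cultures, so intervals say nothing about the spread between cultures. No paired analysis was possible because the pools carry no replicate numbers and no test was run. Six4 (728 epithelial UMIs) and Hoxa3 (325) are too shallow to order most clusters. The tuft-like and ionocyte-like clusters and the mesenchyme of FTOC hold 25, 44 and 55 cells.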
